A study of Mus musculus with 6 samples.

Results

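The Schlafen genes of the mouse are a cluster of related genes on chromosome 11, and 7 of them were followed here: Slfn1, Slfn2, Slfn3, Slfn4, Slfn5, Slfn8 and Slfn9. They were chosen by symbol, as 7 of the 33924 genes of the deposited count table, and not by how they behaved. All 7 had enough reads to be tested in both comparisons. RNA sequencing compared a mouse model of acute lymphoblastic leukemia with wildtype pro-B cells, in 6 libraries from bone marrow that form 3 groups of 2. The leukemia libraries are labelled leukemia 1 and leukemia 92, each with 2 replicates, and carry the genotype Mll-Af4 with N-RasG12D. To make them, marrow of Mll-Af4 mice aged 6 to 8 weeks was sorted for c-Kit+ Sca1+ cells, which received a retrovirus with Cre and TdTomato, were sorted for Tomato, and then received a retrovirus with N-RasG12D. Recipients irradiated with 900 rads were given 250000 of these cells by tail vein together with 200000 wildtype helper marrow cells. The wildtype pro-B cells were taken as B220+CD43+IgM- cells, and the labels give no age of their own for them. The labels do not say whether the leukemia cells were sorted away from host and helper cells, nor whether replicates came from separate animals, so p-values may measure technical spread alone. As far as the labels tell, the control differs from the leukemias in the fusion, the Ras allele, transduction and transplantation into irradiated recipients. It also differs in its selection as B220+CD43+IgM- cells, which is not given for the leukemias. The effects of these cannot be told apart.

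Schlafen proteins are known in mammals as interferon-inducible regulators of growth, differentiation and translation in immune cells. The family is divided by protein length: Slfn1 and Slfn2 are short, Slfn3 and Slfn4 intermediate, and Slfn5, Slfn8 and Slfn9 long, with a helicase-like part at the C-terminal end. In mice, loss of Slfn2 function in the elektra mutant ends the quiescence of T cells and monocytes, and Slfn2 shields tRNAs from cleavage under stress in T cells. In humans, SLFN11, which is not among the mouse genes measured here, is known for sensitising cells to drugs that damage DNA or stall replication.

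In RefSeq's gene order on chromosome 11 the cluster runs Slfn5, Slfn9, Slfn8, Slfn10-ps, Slfn2, Slfn1, Slfn4, Slfn3 and Slfn14. The coding sequences of the GENCODE vM21 annotation follow the length classes: 1011 bases in Slfn1 and 1134 in Slfn2, 1920 in Slfn3 and 1806 in Slfn4, 2652 in Slfn5, and 2730 in both Slfn8 and Slfn9. Slfn8 and Slfn9 were 92.7% identical over their aligned coding bases, Slfn3 and Slfn4 91.6%, and Slfn1 and Slfn2 70.3%. Of all 50-base stretches in its transcripts, Slfn8 shared 14.6% with another family member, Slfn9 11.2%, Slfn4 8.2%, Slfn3 7.4%, Slfn2 4.3%, Slfn1 0.6% and Slfn5 0%. Reads from such stretches could be lost or assigned to a relative, so the values of Slfn8 and Slfn9, and of Slfn3 and Slfn4, are uncertain to that extent. The strand setting of the counting is not given in the sources used here. Slfn5os, the antisense neighbour of Slfn5, had 0 reads in all 6 libraries under its older name 1700003F17Rik.

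The promoters are shown because they bear on the comparison with interferon genes below. The windows are RefSeq's, from 250 bases before to 50 bases after the start, in build GRCm38.p6. The authors' counts name mm9, a different build, so these positions cannot be laid over the counts. An interferon response type motif (ISRE-type: GAAA, any 2 bases, GAAA, on either strand) was found in the windows of 3 of the 7 genes, and in 3.44% of the 32851 windows of all genes. These were the 3 long genes. The match is in capitals, each sequence reads along the gene's strand, and positions are on chromosome 11.
Slfn5, chr11:82951922-82951981, plus strand: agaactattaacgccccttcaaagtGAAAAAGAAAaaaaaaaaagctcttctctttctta
Slfn8, chr11:83020824-83020883, minus strand: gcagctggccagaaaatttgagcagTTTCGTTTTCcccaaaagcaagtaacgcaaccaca
Slfn9, chr11:82991841-82991900, minus strand: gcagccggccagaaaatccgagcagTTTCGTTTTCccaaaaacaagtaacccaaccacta

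The match began at -155 in Slfn5, counted in bases from the start site, and at -48 in Slfn8 and -45 in Slfn9, where it reads on the opposite strand. RefSeq gives Slfn8 a second start, from which the same match lies at -136. The windows of Slfn8 and Slfn9 were 83.4% identical over 295 aligned bases, so their matches are not independent of each other. A GAS-type motif (TTC, any 3 bases, GAA) was found in 0 of the 7 windows and in 8.3% of all windows. No match says only that these letters are absent from this window.

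The short and intermediate genes held another motif. The ETS-type letters CTTCCTG, searched on both strands after these windows had been read, were found in 4 of the 7 windows and in 13.27% of all windows. As the letters were picked from these windows, the 2 shares cannot be compared as a test. The sequences below show it in capitals for the short and intermediate genes, all on the plus strand.
Slfn1, chr11:83116722-83116778: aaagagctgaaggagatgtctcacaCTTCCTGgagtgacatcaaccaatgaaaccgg
Slfn2, chr11:83065033-83065089: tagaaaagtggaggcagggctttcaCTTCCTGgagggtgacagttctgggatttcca
Slfn3, chr11:83191245-83191320: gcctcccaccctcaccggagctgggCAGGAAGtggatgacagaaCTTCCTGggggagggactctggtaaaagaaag
Slfn4, chr11:83175089-83175145: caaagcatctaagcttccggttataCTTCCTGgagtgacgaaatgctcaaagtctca

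The match began at -73 in Slfn1, -54 in Slfn2 and -72 in Slfn4, and Slfn3 held it on both strands, at -60 and -41. Slfn1 and Slfn4 shared the 15 bases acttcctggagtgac around it, and only these 2 of all windows held them. Slfn2 shared 12 bases around the match with Slfn1 and 11 with Slfn4, so these matches may not be independent of each other. A match of letters is a description and not a binding site.

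**Figure D1:**
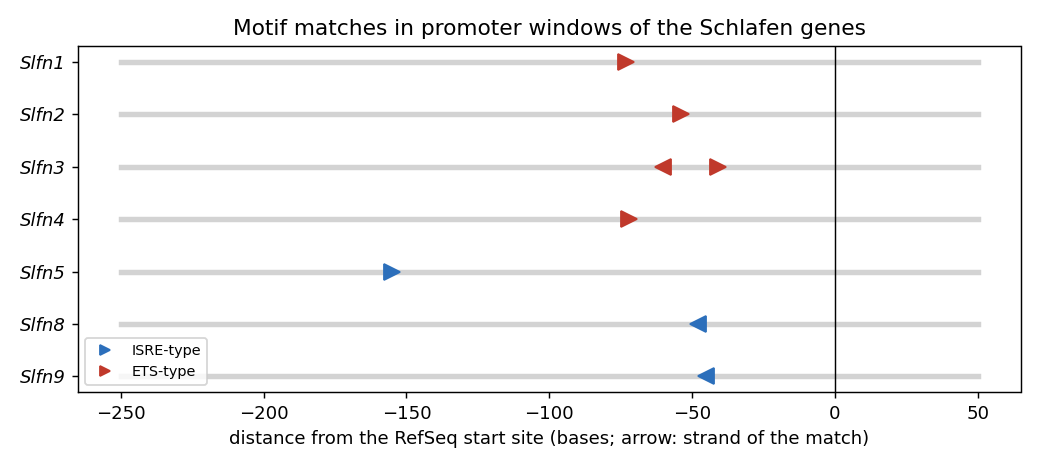
Motif matches in the RefSeq promoter windows of the 7 Schlafen genes; the x axis is the distance from the start site in bases and arrows point along the strand of the match. The 3 long genes (Slfn5, Slfn8 and Slfn9) carry the ISRE-type match and the other 4 the ETS-type match.

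A library held 22153444 to 27444759 reads on genes. Levels are given in CPM, read counts scaled to a common library size after TMM normalisation, in which 3 reads equal 0.111 to 0.140 depending on the library. The B-lineage factor Pax5 was present in all 4 leukemia libraries, at 127 to 146 CPM against 96.8 and 98.2 CPM in pro-B cells. Dntt, the terminal transferase of pro-B cells, had 969.5 and 604 CPM in the pro-B libraries and at most 1.11 CPM in a leukemia library. The leukemia 1 libraries stood apart from each other, with an SD of log2 differences of 1.10 between replicates, against 0.23 in leukemia 92 and 0.23 in pro-B cells. Each was nearer to the leukemia 92 libraries than to its own replicate. These SDs were 0.954 and 0.903 for replicate 1 of leukemia 1 and 0.986 and 0.99 for replicate 2. The 17 granulocyte markers summed to 17910 CPM in leukemia 1 replicate 2, to 209 CPM in replicate 1, and to 465 to 937 CPM in the other 4 libraries, and none of them was at 0 in any library. The Schlafen results that turn on this library are given with and without it. In such bulk libraries fewer cells of a type and less RNA per cell cannot be told apart.

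The leukemias carried more Slfn2 and Slfn4 and less Slfn8 than pro-B cells. The leukemia was taken as the unit here: counts of its libraries were summed, and 2 leukemias were set against 2 pro-B libraries by edgeR's quasi-likelihood test with Benjamini-Hochberg adjustment over 15280 genes, called at an adjusted p under 0.05. Of the 7 genes, 2 rose (Slfn2 and Slfn4), 1 fell (Slfn8) and 4 did not pass. Over all genes tested, 9.54% were called higher and 10.7% lower in leukemia. The median log2 change of the 7 genes was 0.13, against 0.02 over all genes tested, and it was -0.28 without leukemia 1 replicate 1 and 0.22 without replicate 2.

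Slfn2, the short Schlafen known for T-cell quiescence, rose in leukemia. It stood at 84.4 and 87.0 CPM in leukemia 1, at 57.5 and 42.7 CPM in leukemia 92, and at 14.7 and 14.4 CPM in pro-B cells. Every leukemia library was above both pro-B libraries, and replicates of leukemia 1 lay close together here although they differed widely elsewhere. The mean level was 67.9 ± 21.4 CPM over the 4 leukemia libraries (SD, n = 4) against 14.5 ± 0.167 CPM over the pro-B pair (SD, n = 2). It rose by 2.23 on the log2 scale (SE 0.28), 4.68-fold, with an adjusted p of 0.0196 in edgeR. Without leukemia 1 replicate 2 it was still called, and over 13 alternatives the log2 change ranged from 1.82 to 2.52 and was called in 11. The other 2 each dropped a pro-B library, after which edgeR called 0 of all genes (adjusted p for Slfn2 0.173 and 0.179), where 2645 and 2650 genes had an unadjusted p under 0.05.

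Slfn4, an intermediate Schlafen known from myeloid cells, also rose, with the largest change of the 7 genes and a wide spread. It stood at 6.66 and 108.3 CPM in leukemia 1, at 24.7 and 11.8 CPM in leukemia 92 and at 1.85 and 2.53 CPM in pro-B cells. All 4 leukemia libraries were above both pro-B libraries, but leukemia 1 replicate 2 was far above the rest. Slfn4 averaged 37.9 ± 47.6 CPM (SD, n = 4) against 2.19 ± 0.483 CPM (SD, n = 2), and rose by 4.15 on the log2 scale (SE 0.684), 17.7-fold, with an adjusted p of 0.0302 in edgeR. Without leukemia 1 replicate 2 the change was 2.55 and was not called (adjusted p 0.0743, edgeR). Without replicate 1 of leukemia 1 it was 4.87 (adjusted p 0.0625), and Slfn4 was called in 7 of 13 alternatives. With the reads of Slfn3 and Slfn4 summed, as relatives that could share them, the change was 1.86 and was not called (adjusted p 0.0914, edgeR).

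Within the leukemia libraries Slfn4 had the same order as the granulocyte markers. Their sums were 209 and 17910 CPM in leukemia 1 and 937 and 510.1 CPM in leukemia 92, beside 6.66 and 108.3 CPM and 24.7 and 11.8 CPM of Slfn4. In pro-B cells the sums were 465 and 489.6 CPM, beside 1.85 and 2.53 CPM of Slfn4. Of the 17 granulocyte markers edgeR called 0 in either direction (median log2 change 3.43), DESeq2 called 10 higher, and 9 passed 0.05 before adjustment in edgeR. Over all genes DESeq2 called 10.1% higher, and 5922 of 15280 had an unadjusted p under 0.05 in edgeR. The part of granulocyte transcripts in the Slfn4 difference was not tested. The genes with the profile most like that of Slfn4 over the 6 libraries were Cxcl2, a neutrophil-attracting chemokine, Trem3 and Clec5a, both myeloid surface receptors, with a root mean square difference in log2 of 0.27, 0.28 and 0.38 among 12405 genes.

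**Figure D2:**
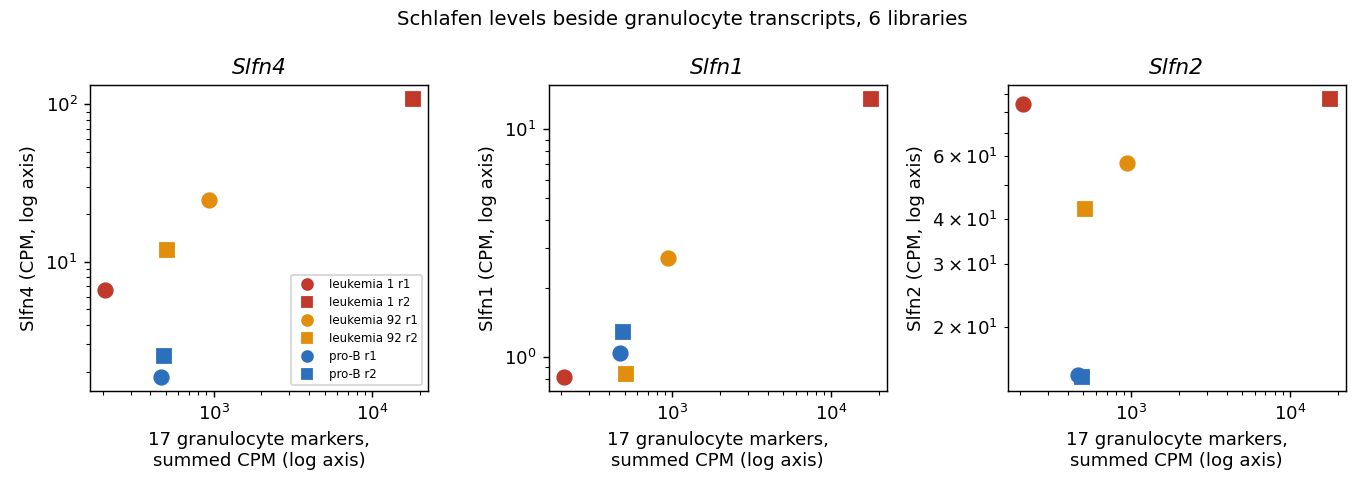
Levels of Slfn4, Slfn1 and Slfn2 (y axes, CPM, log scale) against the summed CPM of 17 granulocyte markers (x axis, log scale) in each of the 6 libraries. Leukemia 1 replicate 2 lies at the far right with 17910 CPM of granulocyte markers; it is the highest library for Slfn4 and Slfn1, whereas Slfn2 is at 84.4 and 87.0 CPM in both replicates of leukemia 1.

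Slfn1, the other short Schlafen, known for slowing the growth of T-lineage cells, did not pass the test. It stood at 0.812 and 13.6 CPM in leukemia 1, at 2.71 and 0.841 CPM in leukemia 92 and at 1.04 and 1.29 CPM in pro-B cells. One leukemia library was far above the others and 2 lay below both pro-B libraries. Over the leukemia libraries Slfn1, like Slfn4, had the order of the granulocyte markers, although its lowest values, 0.812 and 0.841 CPM, hardly differed. The log2 change was 1.99 (SE 0.776, adjusted p 0.149, edgeR), and without leukemia 1 replicate 2 it was 0.22 (adjusted p 0.813). Col1a2, Timp1 and Dmxl2 had the profiles most like it (root mean square difference in log2 0.17, 0.23 and 0.25), and Slfn4 was the nearest Schlafen at 1.06.

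Slfn3, the intermediate Schlafen beside Slfn4, did not pass either. It stood at 32.7 and 6.80 CPM in leukemia 1, at 7.85 and 7.47 CPM in leukemia 92 and at 11.9 and 12.4 CPM in pro-B cells. Leukemia 1 replicate 1 alone was above pro-B cells, and the other 3 leukemia libraries were below them. The log2 change was 0.13 (SE 0.471, adjusted p 0.863, edgeR), and without leukemia 1 replicate 1 it was -0.73 (adjusted p 0.116). Slfn3 and Slfn4, 91.6% identical in coding sequence, thus had their highest leukemia library in different replicates of leukemia 1. Zfp456, Arl13b and Bcor had the profiles most like Slfn3 (0.09, 0.09 and 0.12).

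The long genes Slfn8 and Slfn9 were lower in every leukemia library. Slfn8 stood at 9.59 and 7.95 CPM in leukemia 1, at 10.7 and 9.62 CPM in leukemia 92 and at 22.0 and 24.6 CPM in pro-B cells. The 4 leukemia libraries lay within a narrow range, below both pro-B libraries. Slfn8 averaged 9.47 ± 1.15 CPM (SD, n = 4) against 23.3 ± 1.84 CPM (SD, n = 2), and fell by 1.28 on the log2 scale (SE 0.211), to a level 2.44-fold lower, with an adjusted p of 0.0291 in edgeR. Over 13 alternatives the log2 change ranged from -1.45 to -1.16 and was called in 11, the exceptions again being those with 1 pro-B library left out. With the reads of Slfn8, Slfn9 and Slfn10-ps summed, the change was -0.70 and was not called (adjusted p 0.0938, edgeR).

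Slfn9, the closest relative of Slfn8, stood at 26.1 and 17.7 CPM in leukemia 1, at 30.1 and 29.7 CPM in leukemia 92 and at 36.5 and 34.7 CPM in pro-B cells. The groups did not overlap, yet the log2 change of -0.45 (SE 0.23) did not pass (adjusted p 0.235, edgeR). Groups without overlap, in either direction, numbered 4 of the 7 genes, 2 higher and 2 lower. Over all genes tested, 23.4% lay wholly higher and 27.3% wholly lower in leukemia, close to the members' shares. Slfn8's profile was nearest to Prkacb, the beta catalytic subunit of protein kinase A, at 0.05, and to the weakly expressed Ppp4r4 and Tox3, at 0.07 and 0.10. The profile of Slfn9 was nearest to Phc3, a polycomb protein, Ddx17, an RNA helicase, and Tcta, at 0.05, 0.07 and 0.07.

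Slfn5, the remaining long gene, did not pass the test. It stood at 7.27 and 7.32 CPM in leukemia 1, at 16.5 and 6.73 CPM in leukemia 92 and at 11.8 and 12.0 CPM in pro-B cells. Leukemia 92 replicate 1 was above pro-B cells and the other 3 leukemia libraries were below them. The log2 change was -0.29 (SE 0.344, adjusted p 0.578, edgeR). Mx2 and Trim30d, both interferon-induced, and the weakly expressed AL626775.1 (mean 0.212 CPM) had the profiles most like it (0.18, 0.21 and 0.20). Of the 3 long genes, which share the ISRE-type match shown above, 1 fell and 2 did not pass.

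**Figure D3:**
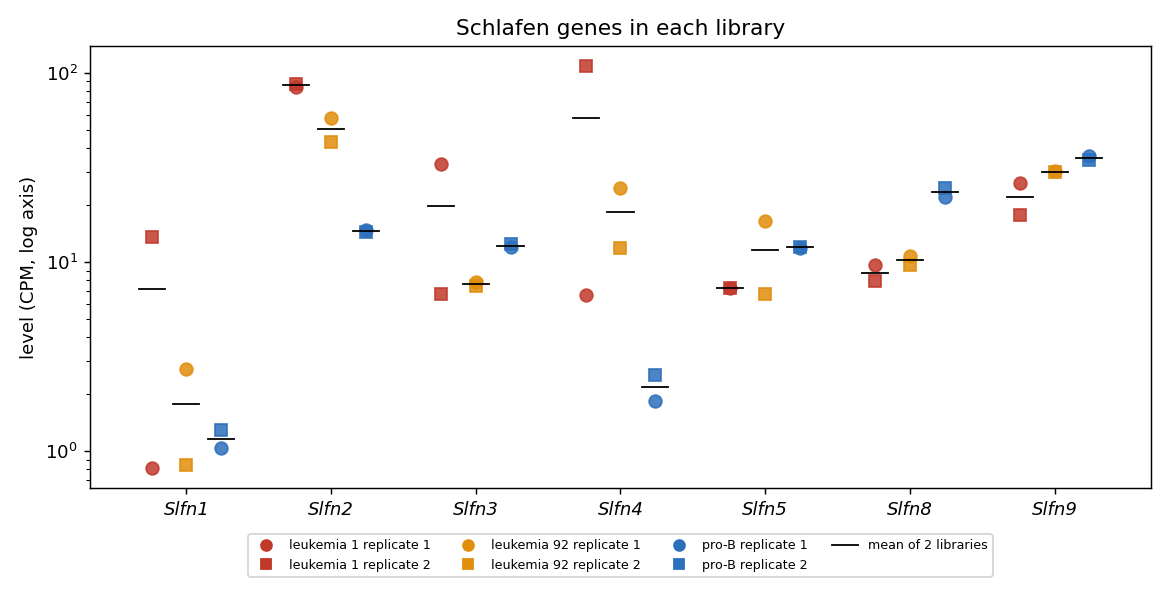
Level of each Schlafen gene in each of the 6 libraries (y axis, CPM, log scale), with circles for replicate 1, squares for replicate 2 and bars for the mean of the 2 libraries of a group. Slfn2 and Slfn4 lie above pro-B cells and Slfn8 and Slfn9 below them in all 4 leukemia libraries, while Slfn1, Slfn3 and Slfn5 overlap.

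**Figure D4:**
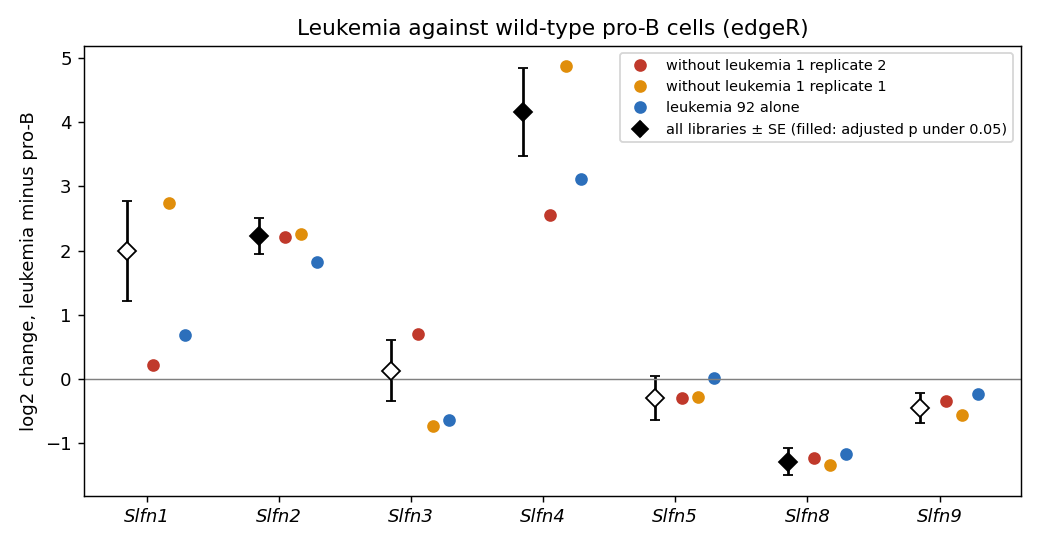
Log2 change of each Schlafen gene in leukemia against pro-B cells (y axis) with its standard error (diamonds, filled where the adjusted p was under 0.05), and the change without single libraries of leukemia 1 or with leukemia 92 alone (circles). Slfn2 stays above 0 in each, Slfn4 goes from 4.15 to 2.55 without leukemia 1 replicate 2, and Slfn3 changes sign.

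Reads of the 7 genes summed to 168 and 248.7 CPM in leukemia 1, to 150 and 109 CPM in leukemia 92 and to 99.7 and 102 CPM in pro-B cells. Their distribution over the genes differed. Slfn9 took 36.6% and 34.1% of these reads in pro-B cells and 7.13% to 27.2% in leukemia, and Slfn8 took 22.0% and 24.1% in pro-B cells against 3.19% to 8.84%. Slfn2 took 14.7% and 14.1% in pro-B cells and 35.0% to 50.4% in leukemia, the largest share in 3 of the 4 leukemia libraries. In leukemia 1 replicate 2 Slfn4 took 43.5%, against 35.0% for Slfn2.

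**Figure D5:**
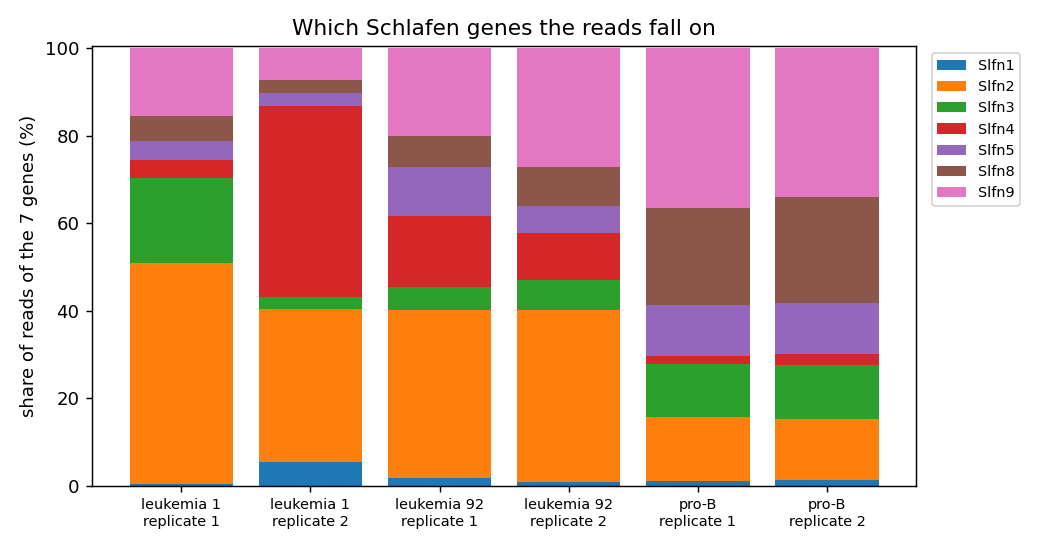
Share of the reads of the 7 Schlafen genes that fell on each gene (y axis, percent) in each of the 6 libraries (x axis). Slfn9 and Slfn8 take most reads in pro-B cells and Slfn2 in 3 of 4 leukemia libraries, whereas Slfn4 takes 43.5% in leukemia 1 replicate 2.

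Levels of different genes were compared per kilobase of coding length. In pro-B cells Slfn9 had 12.7 and 13.4 CPM per kb and Slfn2 12.7 and 12.9 CPM per kb, which did not differ beyond their spread. Slfn8 followed at 8.52, Slfn3 at 6.34 and Slfn5 at 4.49 CPM per kb, each apart from its neighbours in this order. Slfn4 and Slfn1, at 1.21 and 1.15 CPM per kb, were lowest and did not differ beyond their spread. Over the whole exon length instead, Slfn2 led with 8.74 CPM per kb, and Slfn9 at 5.97 and Slfn8 at 5.68 did not differ beyond their spread. In leukemia Slfn2 led in every library, at 74.4 and 76.7 CPM per kb of coding length in leukemia 1 and 50.7 and 37.7 in leukemia 92, and the gene with the next highest mean was Slfn4 in leukemia 1 and Slfn9 (10.9 CPM per kb) in leukemia 92. Slfn4 had 3.69 and 60.0 CPM per kb in leukemia 1, and in replicate 1 Slfn3 (17.1) and Slfn9 (9.55) were above it. In leukemia 92 Slfn4 at 10.1 ± 5.03 CPM per kb did not differ from Slfn9 beyond its spread.

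The other rows of the family added little. Slfn10-ps, a pseudogene beside Slfn8, stood at 4.39 and 2.03 CPM in leukemia 1, at 4.97 and 5.28 CPM in leukemia 92 and at 5.37 and 6.16 CPM in pro-B cells. Its log2 change of -0.46 did not pass (adjusted p 0.441, edgeR). Slfn14-ps had 1, 1, 2 and 0 counts in the leukemia libraries and 7 and 20 in pro-B cells (adjusted p 0.0537, edgeR), and Slfnl1 had at most 3 counts in any library and was not tested.

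Leukemia 92 and leukemia 1 were then compared in a fit of all 6 libraries with 1 coefficient per group. Of the 7 genes edgeR called 0 in either direction, where it called 1.82% of 14979 genes higher and 1.27% lower in leukemia 92. Of the 7, only Slfn2 had an unadjusted p under 0.05 in edgeR, beside 3759 of the 14979 genes. DESeq2 called Slfn2 lower, beside 5.78% of all genes. Slfn2 stood at 57.5 and 42.7 CPM in leukemia 92 and at 84.4 and 87.0 CPM in leukemia 1, a log2 difference of -0.77 (SE 0.175, adjusted p 0.0843 in edgeR and 0.00573 in DESeq2). Slfn2 was also called lower without either replicate of leukemia 1 (adjusted p 0.00887 and 0.0111, edgeR), when the other replicate stood alone and was taken to vary like the other groups. In those fits 24.5% to 25.2% of all genes were called higher and up to 27.3% lower. Slfn8 and Slfn9 were higher in both leukemia 92 libraries than in both of leukemia 1, and Slfn2 was lower; over all genes tested 25.4% lay wholly higher and 25.8% wholly lower. Slfn8 and Slfn9 had log2 differences of 0.22 (SE 0.192, adjusted p 0.523) and 0.45 (SE 0.213, adjusted p 0.269). Without leukemia 1 replicate 1 Slfn9 was called higher, at 0.76 (adjusted p 0.000385, edgeR), as were 24.5% of all genes. The median log2 difference was -0.77 over the 7 genes and -0.08 over all genes tested, but for the 7 genes it turned to 0.18 without leukemia 1 replicate 1 and to 0.20 without replicate 2.

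For the remaining genes the comparison turned on which replicate of leukemia 1 was read. Slfn4 had a log2 difference of -1.66 (SE 1.23, adjusted p 0.446), and of 1.46 without leukemia 1 replicate 2. Slfn1 had -2.01 (SE 1.33, adjusted p 0.398), and 1.15 without that library. Slfn3 had -1.37 (SE 0.725, adjusted p 0.311), and 0.18 without leukemia 1 replicate 1. Slfn5 had 0.67 (SE 0.445, adjusted p 0.401), and -0.11 without leukemia 92 replicate 1. All adjusted p are from edgeR.

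Type I interferon is known to induce Schlafen genes through its receptor and JAK kinases, so these genes were read beside the family. Of 30 interferon-stimulated genes tested in leukemia against pro-B cells, 2 rose and 9 fell, with a median log2 change of -0.40. Oas2, which makes the activator of RNase L, rose by 2.48 and Ifitm3, which blocks virus entry, by 2.07 (adjusted p 0.0189 and 0.0396, edgeR), but neither passed without leukemia 1 replicate 2 (0.290 and 0.381), when 0 rose and 8 fell. The counts were 1 and 3 without leukemia 1 replicate 1. Over all genes tested 9.54% rose and 10.7% fell. These shares were 6.89% and 12% without leukemia 1 replicate 2, and 6.39% and 6.99% without replicate 1. Bst2, which tethers virus particles, fell by 2.63 and Ifit2, a translation inhibitor, by 1.48 (adjusted p 0.0111 and 0.0159). Bst2, like Irf7 below, is also counted among the plasmacytoid dendritic cell markers.

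Of 17 genes of the interferon receptor and its signalling, 3 rose and 2 fell (median log2 change -0.36), beside 9.54% and 10.7% of all genes tested. Irf5 rose by 1.38 and Jak1 by 0.76, whereas Irf7, the factor that amplifies interferon production, fell by 2.62 and the receptor chain Ifnar2 by 1.15 (adjusted p 0.0239, 0.0367, 0.00749 and 0.0154, edgeR). Irf5 and Jak1 did not pass without leukemia 1 replicate 1 (0.104 and 0.108), nor did Irf7 without replicate 2 (0.0743). Within leukemia 92, 28 of the 31 interferon-stimulated genes were higher in replicate 1 than in replicate 2, the direction of Slfn5, at 16.5 against 6.73 CPM. The share of all genes with this direction was not counted. Summed granulocyte markers (937 against 510.1 CPM) and monocyte and macrophage markers (4298 against 3457 CPM) had it too. The pro-B markers did not (5709 against 5935 CPM). Leukemia 1 replicate 2 was the highest of the 4 leukemia libraries for 20 of the 31, and Slfn5 did not follow there, at 7.32 CPM against 7.27 CPM in replicate 1. How many of all genes were highest in that library was not counted either. In leukemia 92, Slfn1, Slfn2 and Slfn4 were also higher in replicate 1, and Slfn3, Slfn8 and Slfn9 differed little between its replicates.

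Slfn2 is known for protecting tRNAs, and 15 genes of tRNA cleavage and translation stress were read: 3 rose and 0 fell (median log2 change 0.19). For this and the next lists, 9.54% of all genes tested rose and 10.7% fell. Ang, the ribonuclease angiogenin that cuts tRNAs, rose by 2.69 (adjusted p 0.0295, edgeR) from a low level, and its inhibitor Rnh1 rose by 1.18 (0.0359). Without leukemia 1 replicate 2 only 1 of the 15 rose, beside 6.89% of all genes, and Rnh1 did not pass (adjusted p 0.0970, edgeR). Of 16 lymphocyte quiescence factors, 2 rose and 0 fell (median 0.04): Klf2 by 2.22 and Runx1 by 1.42 (adjusted p 0.00866 and 0.0162). Klf2 did not pass without leukemia 1 replicate 2 (0.317). Of 7 neighbours of the cluster tested, 1 rose, the ubiquitin ligase gene Rffl, by 3.63 (0.0149), and 6 did not pass.

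Markers of other cells differed between the groups beside the Schlafen genes. Over all genes tested 9.54% rose and 10.7% fell in leukemia. These shares were 6.89% and 12% without leukemia 1 replicate 2, and 6.39% and 6.99% without replicate 1. Of 20 T and NK cell markers, 11 fell in leukemia and 0 rose, with sums of 869.6 and 872 CPM in pro-B cells and 30.3 to 104 CPM in leukemia, and 0 to 3 of the 20 were at 0 reads in a leukemia library. Gzma, a protease of killer cells, fell by 7.74 (edgeR, adjusted p 0.00648). Of 15 plasmacytoid dendritic cell markers, 10 fell and 0 rose, with sums of 5408 and 6084 CPM against 1242 to 1947 CPM. Klk1 was at 0 reads in 3 of the 4 leukemia libraries, and Ccr9, a gut-homing chemokine receptor, fell by 7.23 (0.00648). Slfn8 was lower in the same libraries as these lists, and their part in its difference was not tested. Of 16 monocyte and macrophage markers, 7 rose and 1 fell, 3 and 2 without leukemia 1 replicate 2, with sums of 1611 to 4771 CPM in leukemia and 3715 and 4237 CPM in pro-B cells. The marker that fell was Mpeg1, a pore-forming protein, by 4.09 (0.0265), and without it the sums were 1541 to 4420 CPM in leukemia and 1493 and 1617 CPM in pro-B cells. Csf1r, the receptor of the macrophage growth factor, rose by 6.18 (0.0171). The part of these markers in the Slfn2 and Slfn4 differences was not tested. Of 18 pro-B markers, 2 rose and 4 fell, with sums of 5634 to 8427 CPM in leukemia and 7528 and 8394 CPM in pro-B cells. Cd79a, a signalling chain of the B-cell receptor, rose by 1.60 (0.0159), while Dntt fell by 11.05 (0.0171) and the surface antigen gene Cd24a by 1.92 (0.0229). Without leukemia 1 replicate 2 the falls numbered 16 of the T and NK cell, 9 of the plasmacytoid and 5 of the pro-B markers, and without replicate 1 they numbered 7, 10 and 2.

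Between the leukemias the calls in these lists stood beside 1.82% of all genes higher and 1.27% lower, and they moved with the replicate of leukemia 1. Of 16 quiescence factors 1 was higher and 2 lower in leukemia 92, among them the exit receptor S1pr1 with a log2 difference of -3.94 (adjusted p 0.0229, edgeR). Of the T and NK cell markers 2 were higher, among them Klrd1 (2.95, adjusted p 0.0432, edgeR). The median log2 difference of these markers was -2.64, however, and DESeq2 called 3 higher and 9 lower. Of the plasmacytoid markers Ly6d was higher (2.38, 0.0262) and of the pro-B markers the recombinase gene Rag2 was lower (-1.84, 0.0301). Of the 30 interferon-stimulated genes edgeR called 0, with 2 at an unadjusted p under 0.05 and 1 called higher by DESeq2. Of the 17 genes of interferon signalling it called 0, with 5 under 0.05 before adjustment, and DESeq2 called 2 in each direction. Over all 14979 genes tested by edgeR, 3759 had an unadjusted p under 0.05. DESeq2 called 5.71% of all genes higher and 5.78% lower. Without leukemia 1 replicate 1 the interferon-stimulated genes were called lower more often than higher, and without replicate 2 higher more often than lower. Such fits leave a single library of leukemia 1 and called far more of all genes, in both directions, than the main fit.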

How the data were processed

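RNA of 6 libraries was sequenced from TruSeq RNA kits. The deposited table holds counts, whole numbers of reads per gene and library, which the authors made; per the submitters' processing notes the tools were STAR 2.4, HTSeq 0.6.1 and DESeq2 and the build was mm9, with no role or order given. Of the summed entries of a library, 34.0% to 39.6% named no gene and were left out.

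Genes kept by filterByExpr (minimum count 10) were scaled by TMM and tested by the robust quasi-likelihood test of edgeR 4.0.16 (R 4.3.3). Calls needed a p under 0.05 after Benjamini-Hochberg adjustment over all genes tested. Leukemia libraries were summed per leukemia against pro-B cells, and 3 groups of 2 libraries were used between leukemias. Replicates differed beyond sampling noise in every group (chi-square per degree of freedom 7.88 to 266), so no pair was treated as 1 library deposited more than once. CPM per kb used the longest GENCODE vM21 coding length, in place of a RefSeq length, and profiles were compared as log2(CPM + 0.5) centred per gene. Promoter sequences are RefSeq's, of GRCm38.p6.

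Named genes are the 7 members, for each the 3 genes with the nearest profile, and up to 2 called genes of each of 11 lists in each direction (1 between leukemias). Further genes (Pax5, Dntt, Slfn14-ps, Slfnl1, 1700003F17Rik) were named after their values were seen. A few genes the rule would name are not reported here. The members, lists and rules were chosen with earlier results of these data known. The fits were tested on simulated data. DESeq2 1.42.0, other scaling, no filter, a replicate block, single libraries left out and summed relatives were tried as alternatives. Floors cover counting error only.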

Additional observations from a re-analysis of the deposited data

Results flagged for a closer look

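In 3 of the 7 Schlafen genes 1 of the 4 leukemia libraries stood far from the other 3. The measure is the gap to the nearest library divided by the whole range, set against Dixon's 95% limit for 4 values, which chance passes in about 1 of 20 groups. Over the 15280 genes tested, 15.2% passed it in these libraries. These 4 libraries come from 2 leukemias and are not repeats of 1 sample. Slfn3 was high in leukemia 1 replicate 1, at 32.7 CPM against 6.80 to 7.85 CPM in the other 3, with a ratio of 0.96. Slfn5 was high in leukemia 92 replicate 1, at 16.5 CPM against 6.73 to 7.32 CPM, with a ratio of 0.94. Slfn1 was high in leukemia 1 replicate 2, at 13.6 CPM against 0.812 to 2.71 CPM, with a ratio of 0.851. These are 3 different libraries for 3 genes.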

How the results depend on the processing

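In leukemia against pro-B cells, 2 of the 7 genes were called higher and 1 lower. The counts were 2 and 1 also with median-of-ratios size factors, in DESeq2 and with no filter. The 3-group fit called 1 higher, with or without the replicate block, as Slfn4 was lost (adjusted p 0.0823 without and 0.12 with the block). Leukemia 1 alone gave 4 higher and 3 lower and leukemia 92 alone 2 higher and 2 lower, with the spread taken from the pro-B replicates. These fits called 30.7% of all genes higher and 30.8% lower, and 32.1% and 34.4%. With 1 leukemia library left out, 1 or 2 were called higher and 1 lower. Beside them 6.39% to 10.7% of all genes were called higher and 6.99% to 12% lower. The fits with 1 pro-B library left out are described above with Slfn2. Slfn3 turned to -0.12 with the replicate block, to -0.64 with leukemia 92 alone (adjusted p 0.00489) and to -0.73 without leukemia 1 replicate 1. Slfn5 turned to 0.024 with leukemia 92 alone. With single libraries left out, Slfn3 ranged from -0.73 to 0.70 and Slfn5 from -0.76 to 0.013, the last without leukemia 92 replicate 2.

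In leukemia 92 against leukemia 1, edgeR called 0 of the 7 genes, beside 1.82% of all genes higher and 1.27% lower. DESeq2 called 1 of the 7 lower, beside 5.71% of all genes higher and 5.78% lower. With single libraries left out, 1 library stands alone in a group, and the share of all genes called moved widely with the library left out. Slfn1 turned to 1.15 and Slfn4 to 1.46 without leukemia 1 replicate 2, Slfn3 to 0.18 without leukemia 1 replicate 1, and Slfn5 to -0.11 without leukemia 92 replicate 1. Over all libraries left out singly, the ranges were -3.07 to 1.15 for Slfn1, -2.09 to 0.18 for Slfn3, -2.55 to 1.46 for Slfn4 and -0.11 to 1.20 for Slfn5. Replicate numbers did not pair libraries (correlations of deviations -0.20, 0.07 and -0.05), and the replicate block called 0 of the 7 genes here. Crossing the numbers of leukemia 92, chosen after seeing the data, also gave 0 called members and 0 of all genes. The causes were not tested. Scaling by plain sums of counts moved 8 of 21 group means of CPM by over 1 SD.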
